A study of Macaca mulatta with 20 samples.

Results

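The primary, or azurophil, granules of neutrophils were followed through the genes of 7 of their proteins, MPO, ELANE, AZU1, PRTN3, CTSG, DEFA4 and BPI, in the blood of non-human primates (NHP, *Macaca mulatta*) after whole-thorax lung irradiation (WTLI). The members were all probes of an Agilent human array, other than control spots, that carry 1 of these 7 gene names, which gave 8 of the 34127 different probes and 7 of the 25992 names in the gene column (a probe with no gene carries a name of its own). BPI had 2 probes, called here BPI probe 1 and BPI probe 2, and each other gene had 1. Each of the 8 probes was printed once per array.

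RNA of whole blood, depleted of globin transcripts, was hybridized to 20 one-color arrays in 4 groups of 5, replicates numbered 1 to 5 in each. The group pre-irradiation was drawn before exposure and carried no dose, and the groups day 2, day 5 and day 30 were drawn 2, 5 and 30 days after 10 Gy of X-rays to the thorax. The study's methods describe male animals of Chinese origin from the arm without a mitigator, and state that comparisons were paired by animal and that 1 sample was pooled from 2 animals. The labels do not say which sample that was, and the ages given in the methods are not tied to the arrays. There was no unirradiated group followed over the same days, so time and irradiation cannot be told apart.

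Azurophil granules are the earliest granules to form in the neutrophil lineage, at the promyelocyte stage in the bone marrow. Their proteins are made from transcripts that are abundant in promyelocytes and then decline, so that a mature neutrophil in blood carries the stored protein with little of the messenger RNA. The contents include serine proteases and a catalytically inactive relative, the peroxidase that gives pus its green color, a defensin and a protein that binds bacterial lipopolysaccharide.

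The probes are 60 bases long and were designed on human transcripts, so the sequences below are the human ones that macaque RNA had to bind. They are shown in full for 3 genes that sit side by side on human chromosome 19 and yet were detected on very different numbers of arrays, and for the BPI probe that was detected less often than its partner.
AZU1: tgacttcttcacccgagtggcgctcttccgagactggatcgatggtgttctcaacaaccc
PRTN3: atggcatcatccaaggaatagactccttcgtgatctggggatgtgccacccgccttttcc
ELANE: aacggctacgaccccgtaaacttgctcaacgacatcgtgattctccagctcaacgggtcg
BPI probe 2: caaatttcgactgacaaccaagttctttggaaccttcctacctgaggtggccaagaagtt

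The array annotation places the AZU1 probe at chr19:831799-831858, the PRTN3 probe at chr19:847827-847886 and the ELANE probe at chr19:853356-855575 on the human build hg19, all on the plus strand. The 3 probes lie within 23777 bases of each other. The ELANE probe covers 2220 genomic bases and BPI probe 2, at chr20:36953190-36954680, covers 1491, so each of these 60-base sequences runs across an intron of the gene. BPI probe 1 is at chr20:36965709-36965768 on the same strand. The CTSG probe is at chr14:25042788-25042847 and the MPO probe at chr17:56347868-56347927, both on the minus strand. An annotation of exons and UTRs on hg19 and the matching macaque sequence were not used here.

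Levels are given on the log2 scale, as the log2 processed signal of the probe minus the 75th percentile of its array, so that 0 is the 75th percentile and negative values are dimmer. A spot counts as detected where Feature Extraction marked it as well above background. Levels of different probes are not compared, since each human probe may bind macaque RNA differently.

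Detection differed widely among the 8 probes. AZU1 and CTSG were detected on 20 of 20 arrays, PRTN3 on 18, BPI probe 1 on 16, MPO on 15, BPI probe 2 on 5, ELANE on 2 and DEFA4 on 0. Before irradiation MPO and BPI probe 1 were detected on 2 of 5 arrays each. After irradiation MPO was detected on 5, 4 and 4 arrays at 2, 5 and 30 days, and BPI probe 1 on 4, 5 and 5. A probe was tested where at least 5 of the 20 arrays detected it. That left 6 probes of 5 genes among the 19961 probes tested, without ELANE and DEFA4. BPI probe 2 passed only through arrays taken after irradiation, and MPO and BPI probe 1 passed largely through them, so counts and medians over the 6 probes describe those that passed and do not stand for all 7 genes.

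**Figure D1:**
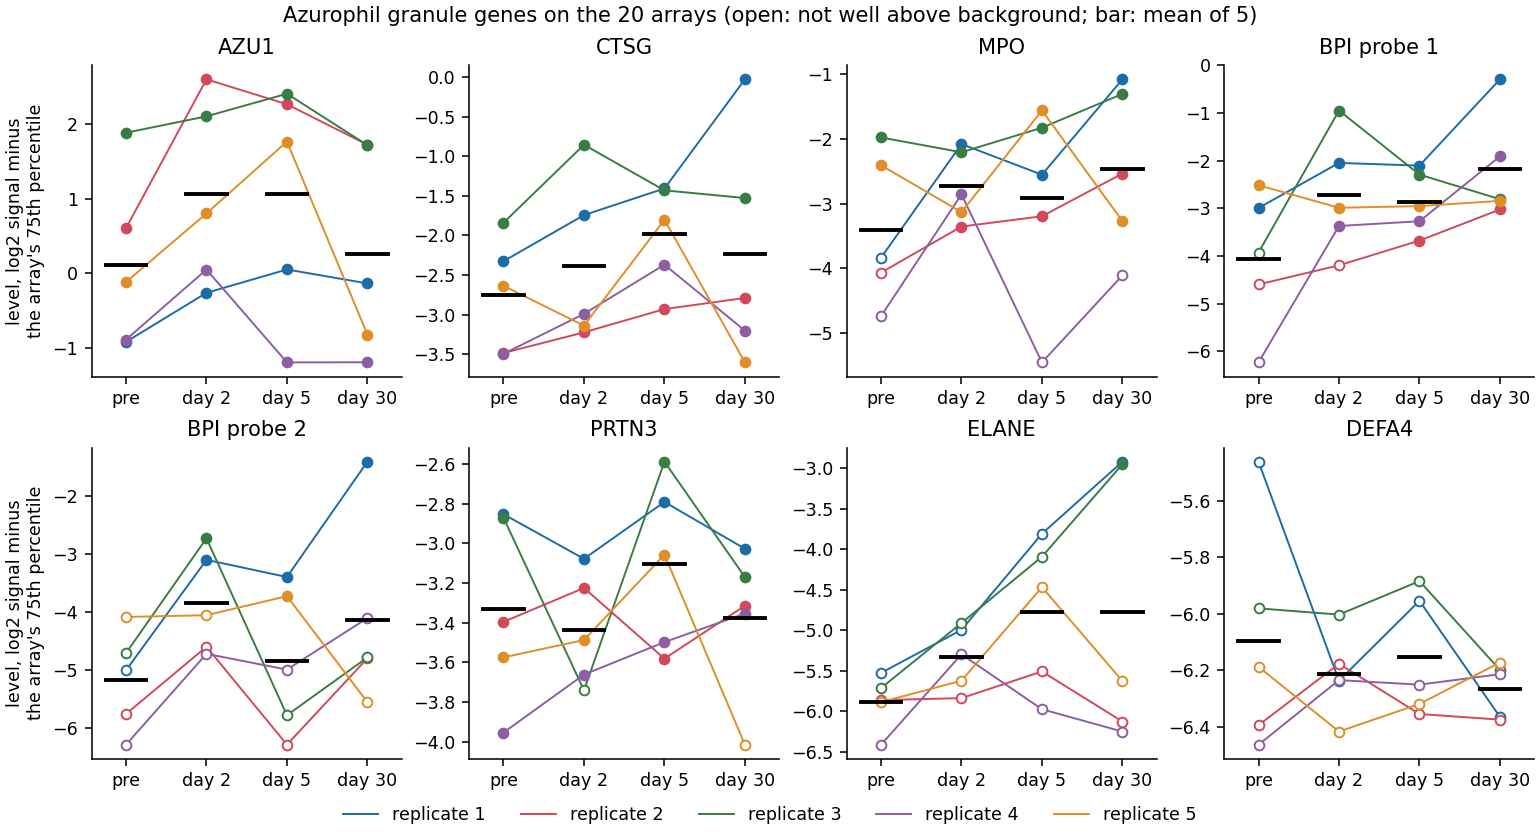
Level of each of the 8 probes (log2 signal minus the array's 75th percentile, vertical axes differ) on the 20 arrays, by group, with arrays of 1 replicate number joined. Open circles were not well above background and black bars are means of 5 arrays. AZU1 and CTSG are detected everywhere, DEFA4 nowhere, and CTSG, MPO and both BPI probes have their highest level in replicate 1 at day 30.

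Detection over all spots ranged from 50.9% to 67.3% per array. The 20 arrays filled 5 slides of 4 arrays, and each slide held 1 array of each group. All arrays of a group had the same position on their slides, so that group and position cannot be told apart. Set against the pre-irradiation array of the same slide instead of the same replicate, the probes at 2 days were higher on 5 of 5 slides for AZU1 and BPI probe 2, 4 for MPO, 3 for CTSG and BPI probe 1 and 1 for PRTN3. At 5 days the count was 5 for BPI probe 1, 4 for AZU1 and CTSG, 3 for MPO and PRTN3 and 2 for BPI probe 2, and at 30 days it was 4 for MPO and BPI probe 2, 3 for AZU1, CTSG and BPI probe 1 and 2 for PRTN3. In bulk blood, fewer cells of a type and less RNA per cell cannot be told apart either.

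Changes from pre-irradiation were fitted in limma on all tested probes, with arrays of 1 replicate number blocked as a pair. The calling rule asked for both a p-value below 0.005 and an FDR (Benjamini-Hochberg) below 10%. None of the 6 member probes was called on any day, and at 2 days the called share of all tested probes was itself 0.0401%. At 5 and at 30 days it was 0%. With no FDR limit, a p-value under 0.005 with a higher level was reached by 1 of the 6 at 2 days (BPI probe 2), by 1 at 5 days (CTSG) and by 0 at 30 days, against 1.82%, 1.26% and 1.08% of all tested probes. BPI probe 2 passed the filter only through arrays taken after irradiation. The filter thus favored a higher level of it, and counts that include it are no support for a rise. At an unadjusted p-value under 0.05 the member counts were 3, 3 and 1, all higher than before irradiation, against 8.26%, 7.38% and 7.17% of the tested probes.

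The mean change was above 0 for 5 of the 6 probes at 2 days, for 6 at 5 days and for 5 at 30 days, where 44.1%, 54.7% and 46.7% of all tested probes were above 0. At 2 days 2 of the 6 probes were higher in every pair, at 5 days 1 and at 30 days 0, against 6.02%, 7.29% and 7.11% of all tested probes. Those at 2 days were AZU1 and BPI probe 2, the latter favored by the filter. The 6 probes had median log2 changes of 0.81, 0.63 and 0.73 on the 3 days. The medians of all tested probes were -0.04, 0.03 and -0.03. With BPI counted by probe 1 alone the medians were 0.68, 0.77 and 0.53. The 3 comparisons share the same 5 pre-irradiation arrays.

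**Figure D2:**
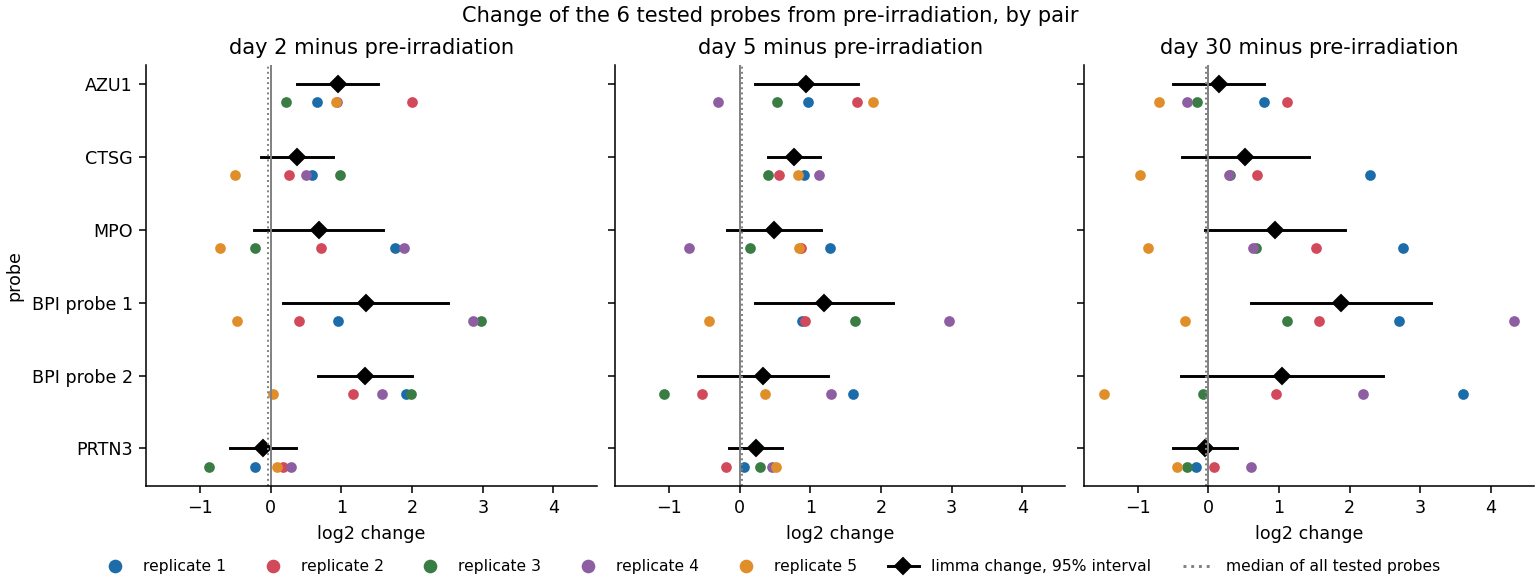
Log2 change from pre-irradiation of the 6 tested probes at 2, 5 and 30 days. Colored points are the 5 pairs, black diamonds the limma change with its 95% interval, and the dotted line the median of all tested probes. The intervals of AZU1 at 2 and 5 days, CTSG at 5 days, BPI probe 1 on all 3 days and BPI probe 2 at 2 days lie above 0, and none of these changes passed the FDR limit.

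In the serine protease family, AZU1 was higher in every pair at 2 days, without passing the FDR limit. AZU1 encodes azurocidin, also called CAP37 or heparin-binding protein, which lacks protease activity and attracts and activates monocytes. Its pre-irradiation levels in replicates 1 to 5 were -0.92, 0.61, 1.89, -0.89 and -0.12, and at 2 days they were -0.26, 2.60, 2.11, 0.05 and 0.80. At 5 days its levels were 0.05, 2.27, 2.41, -1.19 and 1.77, and at 30 days -0.13, 1.72, 1.72, -1.19 and -0.82. Replicates 1 and 4 lay below replicates 2 and 3 in every group, and the groups overlapped widely. The spread between replicates was wider than the difference between groups, with 1 SD of 1.17 before irradiation.

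Within pairs, AZU1 was higher at 2 days by 0.95 on the log2 scale (standard error 0.25, 95% interval 0.37 to 1.52, higher in 5 of 5 pairs, adjusted p = 0.197 from limma). At 5 days its change was also 0.95 (standard error 0.31, higher in 4 of 5 pairs, adjusted p = 0.368 from limma), with replicate 4 lower by 0.31. At 30 days it was 0.15 (standard error 0.28, 95% interval -0.50 to 0.79, higher in 2 of 5 pairs, adjusted p = 0.822 from limma). The 2 early days and day 30 were compared directly as well. AZU1 was lower at 30 days than at 2 days, with a change of -0.80 (standard error 0.26, higher in 1 of 5 pairs, adjusted p = 0.364 from limma).

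CTSG encodes cathepsin G, a protease with chymotrypsin-like specificity. Its levels in replicates 1 to 5 were -2.32, -3.48, -1.84, -3.49 and -2.64 before irradiation and -1.74, -3.22, -0.86, -2.99 and -3.14 at 2 days. At 5 days they were -1.41, -2.93, -1.43, -2.37 and -1.80, and at 30 days -0.03, -2.79, -1.53, -3.20 and -3.60. The groups overlapped on every day, and the day 30 arrays held both the highest and the lowest of the 20 CTSG levels, in replicates 1 and 5.

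At 5 days CTSG was higher in 5 of 5 pairs, by 0.77 on the log2 scale (standard error 0.16, 95% interval 0.40 to 1.14, adjusted p = 0.278 from limma). By its p-value it was number 105 of the 19961 tested probes. Its change was 0.37 at 2 days (standard error 0.22, higher in 4 of 5 pairs, adjusted p = 0.458 from limma). At 30 days it was 0.53 with a standard error of 0.39, between -0.97 in replicate 5 and 2.30 in replicate 1, and without these it was 0.90 and 0.08. The 5 pairs lay closest together at 5 days, between 0.41 and 1.12.

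PRTN3 encodes proteinase 3, the main autoantigen in granulomatosis with polyangiitis. It stayed between -4.02 and -2.59 on all 20 arrays. Its group means were -3.33 before irradiation and then -3.44, -3.10 and -3.38 in time order (1 SD between 0.28 and 0.47). The changes were -0.11 (95% interval -0.57 to 0.35), 0.23 (-0.15 to 0.60) and -0.05 (-0.50 to 0.41) at 2, 5 and 30 days. None of the 3 intervals reaches above 0.60. The sign of the small changes at 2 and 30 days depended on the normalization and on single replicates.

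ELANE encodes neutrophil elastase, the protease mutated in severe congenital and cyclic neutropenia. Its probe was detected on no array of pre-irradiation, day 2 or day 5, and at 30 days in replicates 1 and 3, at levels of -2.92 and -2.95. The other 3 arrays of day 30 were at -6.13, -6.25 and -5.63, within or near the pre-irradiation range of -6.41 to -5.53. Day 30 thus had 2 high and 3 low arrays and no level in between. At 5 days replicates 1, 3 and 5 were at -3.81, -4.09 and -4.47, above every pre-irradiation array but below the detection limit. With no filter on dim probes the fit gave ELANE a value of 1.11 at 5 days, with adjusted p = 0.639 from limma, between levels that were all not well above background.

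MPO, the heme peroxidase that makes hypochlorous acid, had levels in replicates 1 to 5 of -3.83, -4.06, -1.98, -4.74 and -2.41 before irradiation. At 2 days they were -2.08, -3.35, -2.21, -2.86 and -3.13, at 5 days -2.55, -3.20, -1.83, -5.45 and -1.56, and at 30 days -1.08, -2.54, -1.31, -4.11 and -3.27. The groups overlapped, and the 5 arrays on which MPO was not well above background included replicate 4 at 3 of its 4 time points.

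The mean change of MPO in time order was 0.68 (95% interval -0.23 to 1.59), 0.49 (-0.18 to 1.15) and 0.94 (-0.05 to 1.94). The adjusted p-values from limma were 0.442, 0.553 and 0.304. MPO was higher in 3, 4 and 4 of the 5 pairs. Leaving out 1 replicate moved its change to between 0.38 (without replicate 4) and 1.03 (without 5) at 2 days, 0.29 (without 1) and 0.79 (without 4) at 5 days and 0.49 (without 1) and 1.40 (without 5) at 30 days. Of its pre-irradiation arrays, replicates 1, 2 and 4 were not well above background. Their pair changes, among them the 1.75, 1.28 and 2.75 of replicate 1, are differences from background and have no reliable size. Replicates 3 and 5 were detected before irradiation. Their changes were -0.23 and -0.72 at 2 days, 0.15 and 0.85 at 5 days and 0.67 and -0.86 at 30 days.

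BPI encodes bactericidal/permeability-increasing protein, which binds lipopolysaccharide on the surface of Gram-negative bacteria. The levels of BPI probe 1 in replicates 1 to 5 were -2.99, -4.59, -3.93, -6.23 and -2.51 before irradiation and -2.05, -4.19, -0.95, -3.37 and -2.99 at 2 days. They were -2.10, -3.68, -2.29, -3.27 and -2.95 at 5 days and -0.29, -3.02, -2.81, -1.91 and -2.84 at 30 days. The lowest array was replicate 4 before irradiation, and its later levels were all well above background. The pre-irradiation levels ranged from -6.23 to -2.51 and overlapped those of every later group.

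BPI probe 1 was higher by 1.34, 1.19 and 1.88 on the log2 scale in time order (95% intervals 0.17 to 2.51, 0.21 to 2.17 and 0.60 to 3.15). The adjusted p-values from limma were 0.286, 0.380 and 0.174. On each day 4 of 5 pairs were higher and replicate 5 was lower, by 0.47, 0.44 and 0.33. Before irradiation replicates 2, 3 and 4 were not well above background, so their pair changes, among them the 4.32 of replicate 4 at 30 days, are differences from background and have no reliable size. In replicates 1 and 5, detected before irradiation, the changes at 30 days were 2.70 and -0.33.

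BPI probe 2 was not well above background on any pre-irradiation array, where its levels were -5.00, -5.76, -4.71, -6.29 and -4.08. At 2 days they were -3.10, -4.60, -2.73, -4.72 and -4.05, and the detected arrays were replicates 1 and 3. The measured mean of the probe at 2 days was -3.84 against -5.17 before irradiation (higher in 5 of 5 pairs, adjusted p = 0.166 from limma). Replicates 2, 4 and 5 of day 2 were not well above background either, so no least fold can be given. At 5 days the measured mean was -4.84 and at 30 days -4.13. Replicate 1 at 30 days stood out at -1.40, and the other 4 arrays of that day were not detected.

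The fitted changes of the 2 BPI probes were 1.34 and 1.33 at 2 days and 1.19 and 0.33 at 5 days. Those of probe 2 are differences from levels not well above background and have no reliable size, so the 2 probes are no check on each other. In replicates 2 and 3 they went opposite ways at 5 days, with probe 1 higher by 0.92 and 1.64 and probe 2 lower by 0.53 and 1.07.

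DEFA4 encodes alpha-defensin 4, an antimicrobial peptide. Its probe lay between -6.46 and -5.46 on all 20 arrays, not well above background on any, so a change of DEFA4 could not be measured with it.

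The 5 pairs are given by the median of the 6 tested probes, with 1 array per replicate number and day, so that spread within an animal was not measured. The median change of the 6 tested probes at 2 days was 0.80, 0.56, 0.60, 1.25 and -0.22 in replicates 1 to 5. At 5 days it was 0.94, 0.71, 0.35, 0.79 and 0.68, and at 30 days 2.50, 1.04, 0.12, 0.62 and -0.78. All 5 pairs were above 0 at 5 days, 4 of 5 were above 0 at 2 and at 30 days, and replicate 5 was the one below. These medians include BPI probe 2, which passed the filter only through arrays taken after irradiation. They also include MPO and BPI probe 1, each detected on 2 of 5 pre-irradiation arrays. The counts of pairs are therefore no support for a rise. The spread over pairs, as 1 SD, was 0.54 at 2 days, 0.22 at 5 days and 1.21 at 30 days. Without replicate 1 the median change over the 6 probes at 30 days was 0.24, and without replicate 5 it was 1.15.

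The days were compared with each other in the same way. The member count called was 0 of 6 from day 2 to day 5, from day 2 to day 30 and from day 5 to day 30, where 0%, 0.0501% and 0% of all tested probes were called. The median changes of the 6 probes were -0.07, 0.11 and 0.11, with 1 SD over pairs of 0.35, 0.76 and 1.19, and the sign of each depended on the processing and on single replicates. From day 5 to day 30 replicate 1 had a median change of 1.42 and replicate 5 of -1.75, so that these 2 pairs moved in opposite directions.

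Over the 20 arrays, levels of the members went together to very different degrees. Correlations are given as descriptions, since arrays of 1 animal and 1 slide are not independent. The Pearson correlation was 0.79 between the 2 BPI probes, 0.69 between CTSG and MPO, and 0.71 and 0.70 between CTSG and the BPI probes. BPI probe 2 was detected on only 5 of the 20 arrays, MPO on 15 and BPI probe 1 on 16. Their correlations therefore rest in part on values with no reliable size, and the 0.79 is no check of 1 BPI probe by the other. AZU1 stood apart, with correlations of -0.01 and -0.06 with the BPI probes, 0.23 with CTSG, 0.28 with PRTN3 and 0.53 with MPO. Thus the neighbors AZU1 and PRTN3 on chromosome 19 were less alike over arrays than CTSG on chromosome 14 and MPO on chromosome 17.

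**Figure D3:**
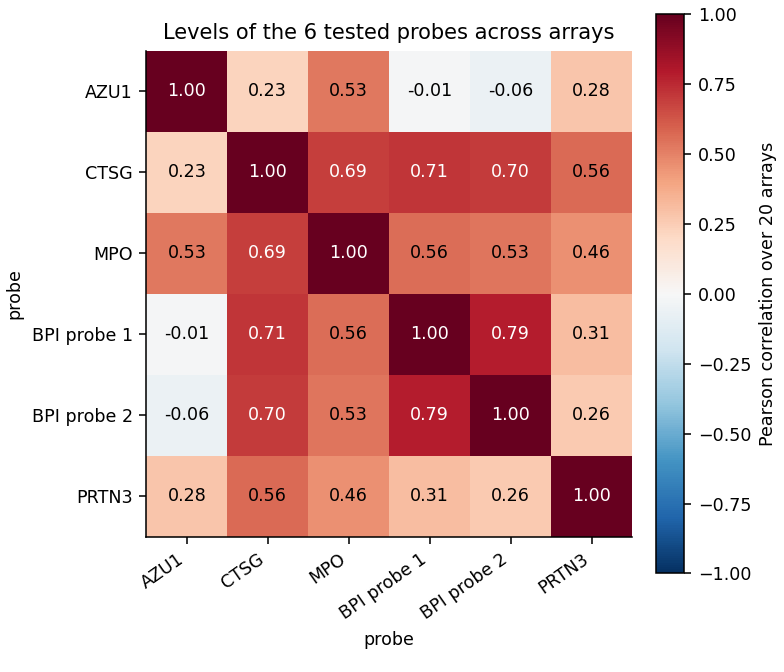
Pearson correlation over 20 arrays between the levels of the 6 tested member probes, from -1 (blue) to 1 (red). The block of CTSG, MPO and the BPI probes lies between 0.53 and 0.79, and AZU1 reaches at most 0.53, with MPO.

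The genes whose levels followed the mean profile of the members most closely over the 20 arrays were sought among 19935 other tested probes. The profile was the mean over the 6 member probes of their deviation from their own mean, with BPI counted by both probes. It stands less for AZU1 and PRTN3, whose r with the profile of the other members was 0.20 and 0.49. For CTSG, MPO, BPI probe 1 and BPI probe 2 that r was 0.81, 0.80, 0.65 and 0.61. The 10 probes with the highest correlation were those of CFP, C19orf38, TLR5, FCN1, PYCARD, HK3, HKDC1, WDR45, SSH3 and FCER1G, with r between 0.91 and 0.88. CFP encodes properdin, a stabilizer of the complement convertase, TLR5 the receptor for bacterial flagellin, FCN1 the lectin ficolin-1, PYCARD the inflammasome adaptor ASC, HK3 a hexokinase of myeloid cells and FCER1G the Fc receptor gamma chain. FCN1 is also among the monocyte markers used below. CFP was higher by 0.54, 0.29 and 0.52 at 2, 5 and 30 days and HK3 by 0.96, 0.72 and 0.84. Over all these probes the median correlation with the member profile was 0.01, and 3.08% were above 0.7.

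Of the other contents of azurophil granules and lysosomes, a list of 13 genes with 10 tested, 0 were called on any day. The list's median change was 0.44, 0.26 and 0.39 at 2, 5 and 30 days, with 9 of 10 genes higher each day. PRSS57, which encodes neutrophil serine protease 4, had at 2 days a log2 change of -1.03 with a standard error of 0.18 (lower in 5 of 5 pairs, adjusted p = 0.141 from limma). Its changes at 5 and 30 days were -0.75 and 0.06. All 20 arrays detected PRSS57. Its sign at 2 days was opposite to that of AZU1, which was higher in 5 of 5 pairs. PRTN3 had a change of -0.11, but its interval (-0.57 to 0.35) included 0 and it was higher in 3 of 5 pairs. The mean changes of CTSG, MPO and BPI were above 0, but the intervals of CTSG (-0.14 to 0.88) and MPO (-0.23 to 1.59) included 0. MPO was lower in replicates 3 and 5, its pairs detected before irradiation (-0.23 and -0.72). The BPI changes rest mostly on pre-irradiation levels not well above background. At an unadjusted p-value under 0.05 the list had 2, 1 and 3 higher genes and 1, 1 and 0 lower ones at 2, 5 and 30 days.

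DEFA3, an alpha-defensin whose sequence is nearly the same as that of DEFA1, was higher at 5 days by 0.94 (standard error 0.21, 5 of 5 pairs, adjusted p = 0.288 from limma). The largest change of the list at 2 and 30 days was that of GLB1, the lysosomal beta-galactosidase, at 0.70 and 0.69, and the lowest change at 30 days was -0.02 in HEXA, a subunit of beta-hexosaminidase.

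The genes that process, store and release granule proteins numbered 8, all tested, with 0 called. Their median change was 0.20, 0.08 and 0.44, and 1, 0 and 2 were higher at an unadjusted p-value under 0.05. LYST, the gene of Chediak-Higashi syndrome, was higher at 30 days by 0.78 (standard error 0.21, 5 of 5 pairs, adjusted p = 0.157 from limma). SRGN, the proteoglycan core that holds granule proteases in storage, had the largest change at 2 days, 0.77 (adjusted p = 0.231 from limma). UNC13D, which primes granules for release, had the largest at 5 days, 0.47, and VPS45, a sorting protein, the lowest on each day, between -0.26 and -0.18.

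Of the 7 genes of protease inhibitors, 6 were tested and 0 were called, with median changes of 0.47, 0.07 and -0.25. At an unadjusted p-value under 0.05, 2, 0 and 1 were higher and 1, 1 and 2 lower. SERPINB1, the cytosolic inhibitor of elastase, cathepsin G and proteinase 3, had a change of 1.0 at 2 days (adjusted p = 0.206 from limma) and of 0.68 at 30 days. SERPINB6, an inhibitor of cathepsin G, had changes of -0.59, -0.70 and -0.35 and was lower in 5 of 5 pairs on each day. PI3, the secreted elastase inhibitor elafin, was the lowest at 30 days, at -0.53, and SERPINA3, which encodes antichymotrypsin, the highest at 5 days, at 0.29.

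All 7 genes of transcription factors active in promyelocytes were tested and 0 were called. At an unadjusted p-value under 0.05, 2, 1 and 2 were higher and 1, 1 and 0 lower, and 2 of them went opposite ways at 2 days. CEBPA, a factor that commits progenitors to the granulocyte lineage, was higher by 0.77 (standard error 0.18, 5 of 5 pairs, adjusted p = 0.171 from limma). GFI1, a repressor needed for neutrophil development, had a change of -1.18 (standard error 0.24, lower in 5 of 5 pairs, adjusted p = 0.152 from limma). GFI1 was lower in 5 of 5 pairs at 5 days too, with a change of -0.78, and its change at 30 days was -0.13. CEBPE, the factor of the later secondary granule stage, had the largest change at 30 days, 1.15 (adjusted p = 0.274 from limma).

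Secondary and tertiary granule genes, which neutrophils switch on after the azurophil stage, were higher in 11 of the 11 tested of 15 listed on each day, with 0 called. Their median change was 0.81, 0.82 and 1.26, and 3, 7 and 7 were higher at an unadjusted p-value under 0.05. At 5 days 4 of them reached a p-value under 0.005 and were higher in 5 of 5 pairs. CEACAM6 was higher by 1.42, LCN2 by 1.36, CEACAM8 by 0.96 and CAMP by 0.71, with adjusted p-values between 0.278 and 0.288 from limma. CEACAM6 and CEACAM8 are adhesion molecules of granulocytes, LCN2 a siderophore-binding lipocalin and CAMP the precursor of the peptide LL-37. LCN2 also had the largest change at 2 and 30 days, 1.88 and 2.55, and the lowest were LTF (lactoferrin) at 2 days, at 0.01, and MMP9 (gelatinase B) at 5 and 30 days, at 0.09 and 0.41.

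Pair by pair, the median of the members minus the median of the secondary and tertiary list averaged -0.27, 0.09 and -0.42 on the 3 days (SD 0.83, 0.34 and 0.44, n = 5 pairs). The members were above that list in 1, 4 and 1 of 5 pairs. Against the list of mature neutrophil markers the differences averaged -0.27, 0.11 and -0.11 (SD 0.79, 0.20 and 0.67). That list was drawn up by human gene names, FCGR3B, CXCR2 and CSF3R among them. Whether each marks neutrophils in macaque blood was not tested. The SD exceeded the size of the mean difference in each of these 6 cases. It is the spread over pairs and not the error of the mean, so it does not show that the lists moved alike. Against monocyte markers the differences averaged 0.04, 0.33 and 0.08 (SD 0.46, 0.22 and 0.85), and at 5 days the members were above the monocyte markers in 5 of 5 pairs. The member medians in all these differences include BPI probe 2, which passed the filter only through arrays taken after irradiation. They also include MPO and BPI probe 1, each detected on 2 of 5 pre-irradiation arrays. These differences and counts are thus no support for a rise of the members beyond another list. Replicate 1 at 30 days was high in the members and in both neutrophil lists, with medians of 2.50 for the members, 3.01 for secondary and tertiary granules and 2.16 for mature neutrophils. It was also the highest pair of that day in the monocyte markers, at 1.11, and in the progenitor markers, at 1.01.

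**Figure D4:**
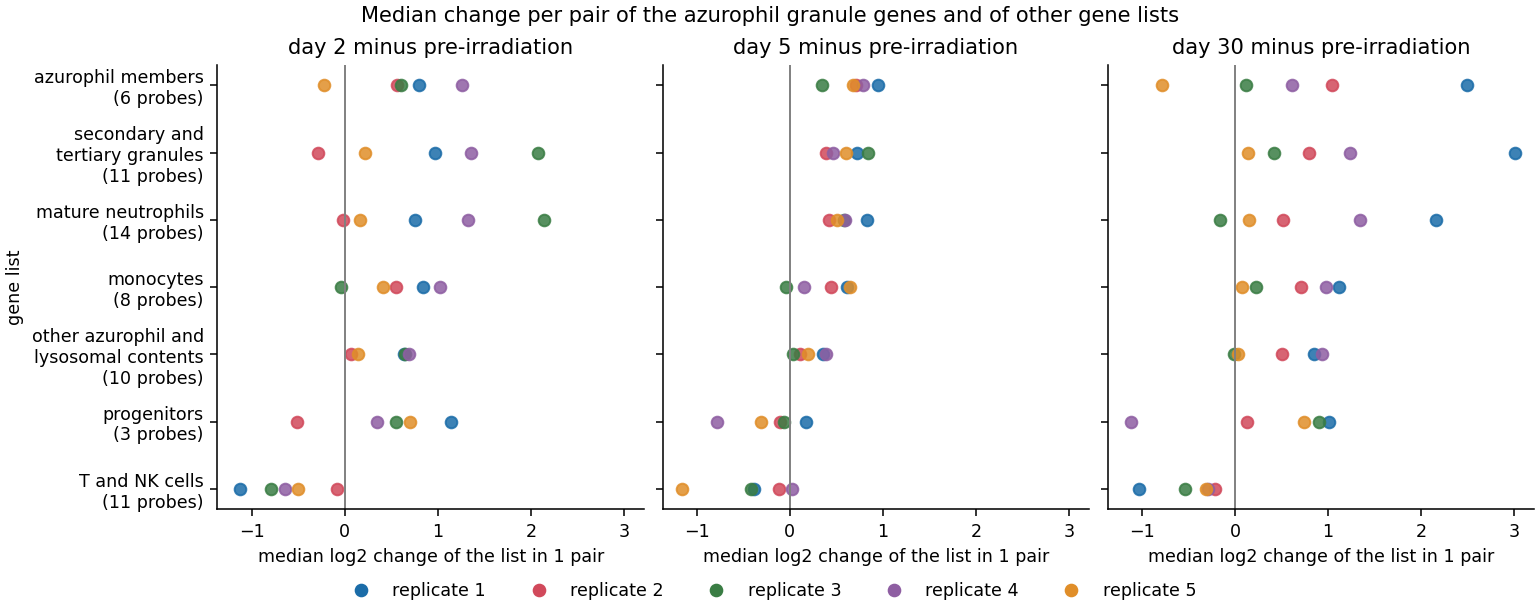
Median log2 change from pre-irradiation in each of the 5 pairs (colored points), for the azurophil members and 6 other gene lists at 2, 5 and 30 days. At 30 days replicate 1 is the highest pair in the members and in the neutrophil, secondary granule, monocyte and progenitor lists. Replicate 5 of the members is then at -0.78.

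Markers of other blood cells were measured on the same arrays, and 0 of the genes in these 4 lists were called against pre-irradiation. Mature neutrophil markers (14 of 15 tested) had median changes of 0.95, 0.61 and 0.85, and their mean level lay between -0.08 and 2.07 before irradiation and between 1.06 and 3.07, 1.06 and 2.38, and 1.08 and 3.66 at 2, 5 and 30 days. Monocyte markers (8 of 8 tested) had median changes of 0.60, 0.39 and 0.62, with mean levels between 2.92 and 4.18 before irradiation and between 3.84 and 4.49, 3.02 and 4.33, and 3.97 and 4.64 afterwards. T and NK cell markers (11 of 11) had median changes of -0.65, -0.32 and -0.57, and their mean level of 2.82 to 3.24 before irradiation went with 2.12 to 2.75 at 2 days, 1.95 to 3.41 at 5 days and 2.26 to 3.18 at 30 days. Among the 5 progenitor markers CD34 and PROM1 were detected on too few arrays to be tested. KIT, FLT3 and SPINK2 had a median change of 0.77, 0.17 and 0.56, the median within pairs at 5 days was below 0 in 4 of 5, and SPINK2 had changes of -0.60, -0.39 and 0.32. The 3 genes had mean levels from -2.74 to -0.77 before irradiation and from -2.86 to -0.42 over the later groups. The share of these cell types in the values of the members was not tested.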

How the data were processed

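Per the file headers, spots were quantified with Feature Extraction 12.0.2.2 (10.7 in the submitters' processing notes), and the deposited processed signal is an intensity with background and spatial trend removed but with no scaling across arrays. A second deposited table gives log2 values for 5884 probes. Within 0.001, 100% of its values for probes with 1 spot differ from the log2 of the processed signal by an offset shared over the array. These hold 4 of the 8 member probes (CTSG, AZU1, MPO and BPI probe 1).

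From the array files, spots with outlier flags and control spots were dropped, log2 signals of repeated spots were averaged, and each array's 75th percentile over the remaining spots was subtracted. Probes well above background on at least 5 of 20 arrays, with values in at least 4 pairs, were tested in limma 3.58.1 (R 4.3.3), 2 groups at a time, with the replicate as a block, as the study's methods pair by animal. The deviations of same-numbered arrays from their group means had r of 0.17 to 0.48 (day 2 and pre-irradiation), 0.12 to 0.65 (day 5) and 0.04 to 0.43 (day 30), and 4, 5 and 2 of the 5 later arrays correlated best with their own number. Between later days r went down to -0.16 (day 30 and day 2). A gene of a list entered with its probe of highest mean signal. Named are all member probes, the 10 probes most like them and, from the 5 lists of granule contents, processing, inhibitors, transcription factors and later granules, genes with a p-value under 0.005 or the highest or lowest change of their list on a day. Genes of cell type lists were named outside this rule, with their values seen. The members and lists were chosen with earlier results of these data known.

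In simulated data for the day 2 comparison, with 200 of 19954 probes changed, 28 of 50 probes raised by 1 (log2) and 45 of 50 raised by 2 were called, beside 16 unchanged ones. Noise was drawn independently for each probe, unlike real arrays, where probes vary together. These shares therefore need not hold for the members. The number of arrays limits the precision, and no count depth applies. Alternatives were quantile normalization, median scaling, normexp with an offset of 50, other filters, flags kept, the deposited log2 values, no block, all 20 arrays in one fit, a slide block, a spread that follows intensity, probe-wise paired tests without shared variance, no FDR limit and each replicate left out. Leaving out BPI probe 2 was added after the data were examined. Blood counts and qRT-PCR values were not analysed here. Figures were drawn with Python 3.11.15 and matplotlib 3.10.9.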

Additional observations from a re-analysis of the deposited data

Results flagged for a closer look

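ELANE, whose probe was dim on nearly all arrays and entered no test, was well above background at 30 days in replicate 1, at a level of -2.92, and in replicate 3, at -2.95, while its pre-irradiation arrays lay between -6.41 and -5.53. It is given here because the signal lies outside the probes tested and above every pre-irradiation array. None of the 46 sets of 5 levels or 5 pair changes of the members that were checked held an array whose gap to the nearest other exceeded Dixon's 95% limit (0.71 of the range for 5 values), a limit that chance passes in about 1 of 20 sets.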

How the results depend on the processing

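The count of members called stayed at 0 except under 3 settings. At 2 days it was 1 with the deposited log2 values (AZU1, a change of 0.99, adjusted p = 0.0768 from limma, 5653 probes tested and 2 member probes with 4 or more pairs) and 1 with no FDR limit (BPI probe 2). At 5 days it was 1 with no FDR limit (CTSG), and at 30 days it was 1 with normexp background correction (BPI probe 1, a change of 0.70, adjusted p = 0.0621 from limma). The median change at 5 days was 0.24 with normexp and 0.86 when the filter asked for detection on all 20 arrays, which left 2 member probes. At 30 days, where it was 0.73, it was 0.33 and 0.34 under these settings and 0.38 with the deposited values. Normexp moved BPI probe 1 to 0.62, 0.30 and 0.70 in time order, BPI probe 2 to 0.60, 0.06 and 0.36, CTSG to 0.31 at 5 days and 0.29 at 30 days, MPO to 0.17 and 0.41 and AZU1 at 30 days to 0.05. The sign of PRTN3 turned at 2 days with normexp (0.41), and at 30 days with quantile normalization (0.016), median scaling (0.020) and normexp (0.22). With each replicate left out in turn, PRTN3 had values of -0.21 to 0.081 at 2 days (above 0 without replicate 3) and -0.21 to 0.052 at 30 days (above 0 without replicate 3 or 5), and AZU1 of -0.10 to 0.36 at 30 days (below 0 without replicate 1 or 2). The median change of the members was then 0.66 to 0.99, 0.51 to 0.77 and 0.24 to 1.15 in time order. For day 5 minus day 2 it was -0.07 with all replicates and -0.22 to 0.33 with each left out (highest without replicate 4), and it was above 0 with no filter (0.03), with the filter on all 20 arrays (0.20) and with the deposited values (0.13). Day 30 minus day 2 (0.11) was -0.15 with normexp, -0.32 with that filter and -0.08 without replicate 1, and day 30 minus day 5 (0.11) was -0.52 with that filter, -0.24 with BPI probe 2 left out, -0.06 with no filter and -0.04 without replicate 1. The cause of these shifts was not tested. Without the replicate block 0 members were called on any day, the median changes were the same (0.81, 0.63 and 0.73), and the standard error of AZU1 at 2 days went from 0.25 to 0.65. Against pre-irradiation no other direction or call of a member changed with the alternatives listed. Over the whole array the calls moved far more. At 2 days the 8 called probes became 0 with quantile normalization, normexp, no filter, no block or probe-wise tests, 185 with the filter on all 20 arrays, 327 with the deposited values, 343 with all arrays in one fit, 153 with the slide block, 195 with a spread that follows intensity, 502 with no FDR limit and 0 to 584 with each replicate left out (584 without replicate 2). At 5 days the 0 became 2 with the slide block, 1 with probe-wise tests and 315 with no FDR limit. At 30 days the 0 became 952, 695, 334, 123, 9, 428, 1 and 631 with normexp, the filter on all 20 arrays, the deposited values, all arrays in one fit, the slide block, the intensity-dependent spread, probe-wise tests and no FDR limit.

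Signal near background limits the results on ELANE, DEFA4 and BPI probe 2, and also on MPO and BPI probe 1, each detected on 2 of 5 pre-irradiation arrays. Values below detection have no reliable size, and a p-value that missed the threshold does not show that a gene was unaltered.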

Other observations

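Lists for other cells were measured on the same arrays. Platelet markers (9 of 12 tested) had a median change of 1.47 at 2 days, with 9 of 9 higher in every pair and 0 called, and of 0.46 and -0.14 at 5 and 30 days. B cell markers (6 of 8 tested) had median changes of -0.57, -0.49 and -0.50, and erythroid markers (10 of 11) of -0.19, 0.16 and -0.73. Basophil and eosinophil markers (11 of 13) had median changes of 0.12, -0.12 and -0.24, yet at 5 days the median within pairs was above 0 in 4 of 5, and 4 genes were higher in every pair and 0 lower in every pair. Among these, RNASE3, which encodes eosinophil cationic protein, had a change of 1.40 (adjusted p = 0.278 from limma). Genes of cell division (10 of 12) had median changes of 0.12, 0.27 and 0.31, and RRM2, a subunit of ribonucleotide reductase, had a change of 2.18 at 30 days (adjusted p = 0.113 from limma).

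Over the 20 arrays the member profile had a correlation of 0.87 with DEFA3, 0.85 with CEBPA and 0.81 with CAMP, each the highest within its list. The median correlation was 0.68 over the 8 monocyte markers, 0.62 over the 14 mature neutrophil markers, 0.57 over the 11 secondary and tertiary granule genes, -0.43 over the 11 T and NK cell markers and -0.71 over the 6 B cell markers. These arrays share animals and slides, and the values are descriptions.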
